A study of Mus musculus with 36 samples.

Results

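On mouse chromosome 3 the genes for both subunits of soluble guanylate cyclase lie next to each other, and the accessibility of the stretch that holds them was examined in CD4 T cells that lacked HP1γ. The peaks described are all consensus peaks of the ATAC-seq count table in a fixed window of chromosome 3 (GRCm39) that holds Gucy1b1, Gucy1a1 and Gm64359, which gave 6 of 71509 peaks. The window was chosen by the read counts of HP1γ-deficient and WT naive cells, in which its peaks were lower in the KO, so that contrast is given below as a description with no test, and so is every contrast that uses those naive libraries. The peaks spanned 133.8 kb, from chr3:81981161 to chr3:82114910.

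HP1α (Cbx5) and HP1γ (Cbx3) are heterochromatin proteins that bind methylated histone H3. The HP1γ KO cells came from Hp1g flox/flox mice with a Cd4-cre transgene, which deletes the gene in T cells, and their WT cells from littermates homozygous for the same flox allele without Cre. The HP1α KO cells came from mice with a germline deletion made with CMV-cre, and their WT cells from +/+ littermates. All donors were sex-matched, 6 to 12 weeks old and of mixed background (129/Sv and C57BL/6). Naive cells were taken from the spleen before transfer. Tconv were donor cells sorted 3 weeks after transfer into irradiated hosts grafted with B6 and B6D2F1 marrow, without or with ex vivo expanded WT Treg. They were sorted as TCR Vβ6-positive, a step that the study's methods do not give for naive cells, so activation and this selection cannot be told apart in a contrast of Tconv with naive cells. Below, activation is a short name for that contrast and activated cells one for Tconv. What caused the contrast was not tested. Each of the 12 groups had 3 libraries. Of the 36 libraries, 3 from HP1α cells with Treg (1 WT and 2 KO) had been excluded by the study as poor in quality and did not enter the tests here. In the HP1γ line the genotype, the presence of Cre and any linked haplotype cannot be told apart.

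Soluble guanylate cyclase is the receptor for nitric oxide. It works as a dimer of an α1 subunit, encoded by Gucy1a1, and a β1 subunit, encoded by Gucy1b1, and turns GTP into cyclic GMP, which acts through protein kinase G, cyclic nucleotide-gated channels and phosphodiesterases. It is best known from smooth muscle and platelets. ATAC-seq reads the accessibility of DNA to a transposase and not the RNA of these genes, and in a bulk sample fewer accessible cells and less accessibility per cell cannot be told apart.

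Of the 6 peaks, 3 lay at the genes. The Gucy1b1 start peak (chr3:81981161-81982380) covered the start of Gucy1b1, and the Gucy1a1 start peak (chr3:82052311-82053410) the start of Gucy1a1, both genes being on the minus strand. The Gucy1a1 intron peak (chr3:82048151-82049000) lay inside Gucy1a1 and 3.38 kb from its nearest transcript start. The other 3 lay beyond the start of Gucy1a1 in intergenic DNA, with centres 31.03, 45.84 and 61.54 kb upstream, and are called the 31 kb, 46 kb and 62 kb peaks. The 62 kb peak (chr3:82114601-82114910) lay just beyond the 3′ end of the long non-coding RNA gene Gm64359 (chr3:82115756-82182012, minus strand), its closest gene by transcript start. The 3 distal peaks were 230, 290 and 310 bases long, and the 3 peaks at the genes 850 to 1220 bases.

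The sequences of the 3 distal peaks are shown because these peaks were open in naive cells and close to empty in Tconv, and 1 of them had no reads in HP1γ KO naive cells. They were read from GRCm39 on the plus strand, for the 62 kb peak its central 300 bases. Capitals mark GGAAGT, the core of ETS factors, and TGTGGT, a core of RUNX factors, on either strand. Other motifs were searched as well and are not marked.

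31 kb peak (chr3:82084131-82084360): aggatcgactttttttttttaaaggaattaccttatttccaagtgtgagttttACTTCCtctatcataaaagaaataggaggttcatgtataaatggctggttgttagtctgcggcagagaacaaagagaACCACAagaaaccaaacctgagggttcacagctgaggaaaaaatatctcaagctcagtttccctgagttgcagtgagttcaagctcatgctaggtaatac
46 kb peak (chr3:82098911-82099200): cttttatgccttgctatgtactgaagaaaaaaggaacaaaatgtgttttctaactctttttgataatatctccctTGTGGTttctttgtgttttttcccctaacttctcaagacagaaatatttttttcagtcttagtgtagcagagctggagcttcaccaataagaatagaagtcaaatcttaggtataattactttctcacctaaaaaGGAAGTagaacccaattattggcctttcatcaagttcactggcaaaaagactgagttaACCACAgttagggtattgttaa
62 kb peak (chr3:82114606-82114905): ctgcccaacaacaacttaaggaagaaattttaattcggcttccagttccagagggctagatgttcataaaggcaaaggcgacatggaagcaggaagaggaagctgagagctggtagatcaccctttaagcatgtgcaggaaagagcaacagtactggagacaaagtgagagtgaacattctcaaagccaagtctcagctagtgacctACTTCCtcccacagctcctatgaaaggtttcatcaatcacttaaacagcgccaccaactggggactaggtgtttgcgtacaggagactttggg

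Each of the 3 distal peaks held 1 match to GGAAGT. Windows of 230, 290 and 300 bases at the centres of all peaks held that motif in 21.8%, 25.8% and 26.4% of cases. TGTGGT was found 1 time in the 31 kb peak, 2 times in the 46 kb peak and 0 times in the 62 kb peak, against 24.5%, 28.0% and 28.6% of such windows with a match. GGAAAA, an NFAT motif, was found 1 time each in the 31 kb and 46 kb peaks, against 17.7% and 22.0% of windows. CTTTGA, a TCF/LEF motif, was found 1 time in the 62 kb peak, against 21.4% of windows. The AP-1, GATA, CTCF and GC box motifs searched had no match in the 3 distal peaks. A match is a run of letters and does not show that a factor was bound. The GC content of the 3 distal peaks was 38.7%, 34.1% and 46.8%. When the reference was cut into overlapping 100-base windows and mapped back, all 14, 20 and 22 windows of the 3 distal peaks returned to their own place with a mapping quality of at least 30, the minimum that the study applied.

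In HP1γ KO naive cells 4 of 6 peaks were lower than in every WT library but not empty, 1 overlapped, and the 62 kb peak was empty. The last had 114, 247 and 147 reads in the WT libraries and 0 reads in each KO library. The pooled WT level was 2.31 CPM (counts per M reads in peaks, TMM-scaled), at which the KO libraries would have held 72.8, 69.0 and 169 reads. With 3 counts over the group as the limit that a count of 0 allows, the level in KO was at least 104-fold lower, counting error only. The KO naive libraries held 32.4 to 82.4 M reads in peaks and the WT ones 70.5 to 90.3 M.

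The Gucy1a1 intron peak came next. It stood at 4.05, 6.39 and 3.38 CPM in WT and at 1.14, 0.802 and 0.545 CPM in KO, so that the highest KO library lay below the lowest WT library. The KO mean was 18% of WT, a difference of -2.42 in mean log2 CPM. The 2 start peaks kept more of their level. Gucy1a1 start had 4.39, 6.32 and 4.09 CPM in WT and 2.85, 1.84 and 1.5 CPM in KO, with the KO mean at 41.8% of WT. Gucy1b1 start had 7.49, 9.61 and 6.51 CPM in WT and 4.15, 2.21 and 2.95 CPM in KO, with the KO mean at 39.4% of WT. Both start peaks were lower in each KO library than in each WT library.

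The other 2 distal peaks were the least different. The 46 kb peak stood at 1.27, 2.33 and 1.87 CPM in WT and at 0.887, 1.17 and 1.13 CPM in KO (58.3% of WT), without overlap. The 31 kb peak stood at 1.0, 1.71 and 1.33 CPM in WT and at 0.443, 0.769 and 1.24 CPM in KO (60.7% of WT), and here the groups overlapped. Thus 5 of 6 peaks were lower without overlap, where 14% of all peaks were, a count that follows from the way the stretch was picked. The loss was uneven along the stretch, from 0% of WT at the 62 kb peak to 58.3% at its neighbour 15.4 kb away.

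**Figure D1:**
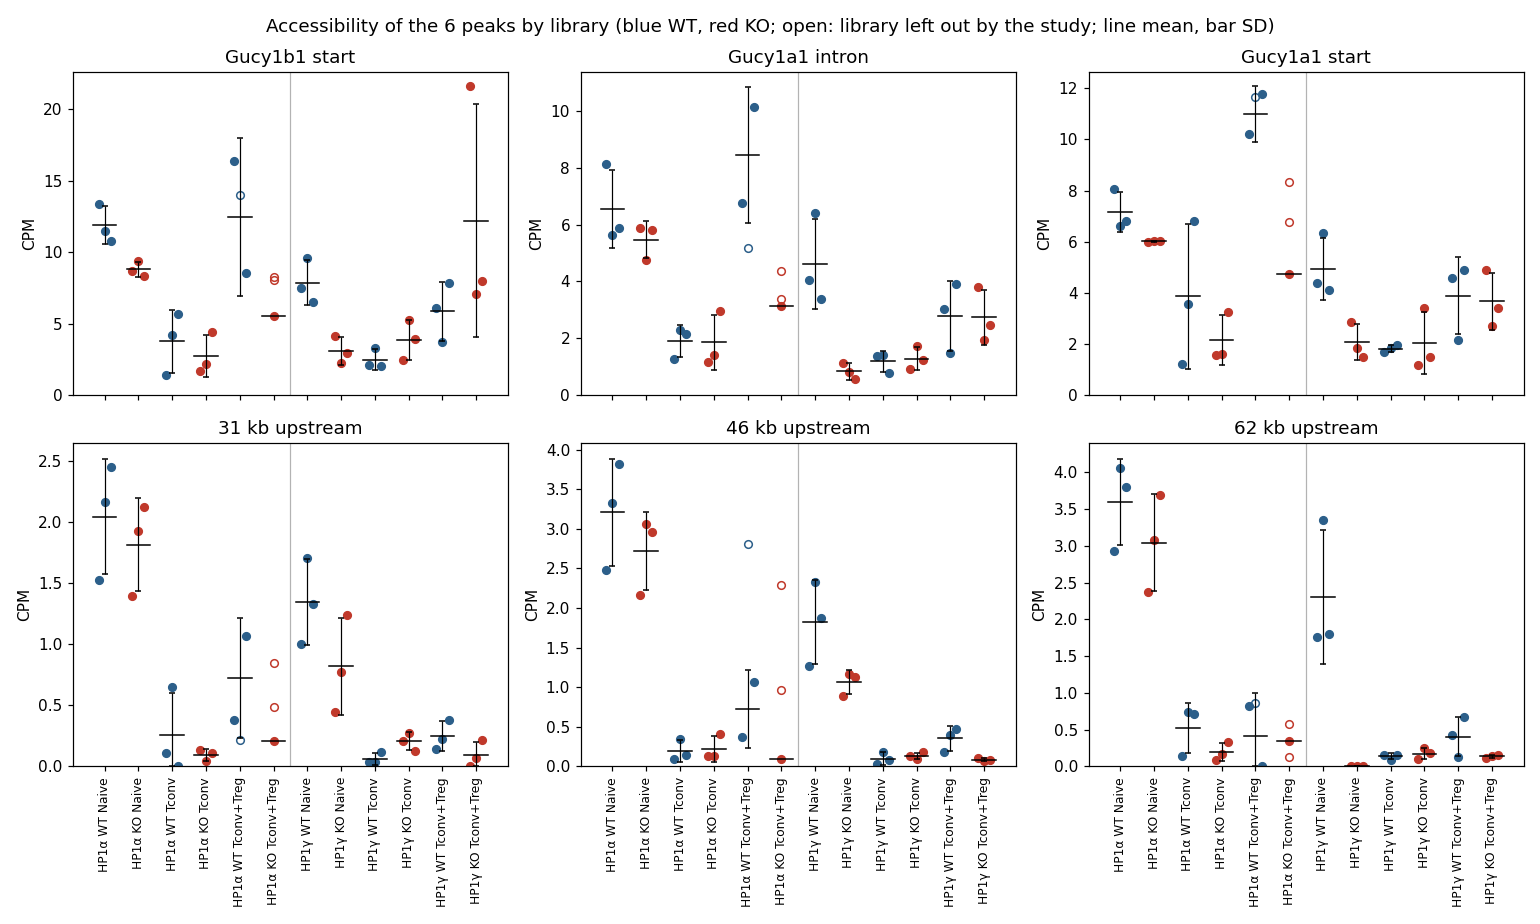
CPM of each of the 6 peaks (linear vertical axes from 0, 1 panel a peak) in the 12 groups, WT in blue and KO in red, with the mean as a line and the SD as a bar cut at 0 where it would pass below it; open points are the 3 libraries that the study left out, which do not enter means or SDs. The 62 kb panel shows HP1γ KO naive cells at 0 in all 3 libraries beside 1.76 to 3.35 CPM in their WT cells, and the Gucy1b1 panel shows 1 HP1γ KO library with Treg at 21.6 CPM.

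Among 71509 peaks, the 62 kb peak was the only one with 0 reads in all HP1γ KO naive libraries and at least 100 in each WT library. With at least 30 reads in place of 100 the count was again 1. The reverse, 0 reads in WT and reads in KO, gave 0 peaks at either minimum, and the HP1α naive groups gave 0 peaks in both directions. In activated cells of the HP1γ KO line the peak was not empty. It had 5, 8 and 11 reads in KO Tconv and 7, 8 and 6 in KO Tconv with Treg, beside 10, 5 and 8 reads in WT Tconv and 21, 5 and 14 in WT Tconv with Treg. With Treg the KO mean was 34.5% of WT with overlap, a log2 fold change of -1.38 ± 0.73 (SE, adjusted p = 0.182, edgeR quasi-likelihood test) that was not called. Reads mapped to this interval in each of these 6 KO libraries, at 0.104 to 0.244 CPM, and the labels do not tie naive and transferred cells to the same mice. Alleles cannot be read from a count table, and a sequence change at this peak was not tested.

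Most neighbouring peaks were not lower. Within 1 Mb on either side there were 17 other peaks, of which 14 were higher in HP1γ KO than in WT naive cells by mean log2 CPM, with a median of 0.23. Of all 71508 peaks tested, 39189 were higher by edgeR log2 fold change, with a median of 0.03. The nearest on the Gucy1b1 side, near Asic5 (chr3:81896931-81897250), was at 118% of WT. The nearest beyond the 62 kb peak (chr3:82240861-82241400) was at 139%, and the start of Map9, a microtubule-associated protein gene, at 115%. A gap of 83.9 kb without a peak lay before Gucy1b1 start and one of 126 kb after the 62 kb peak.

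Of the flanking peaks 1 was lower by more than 1 on the log2 scale, in an intron of Map9 (chr3:82269771-82270030), and a peak near Gm30097 (chr3:82906451-82906660) was at 75.3% of WT without overlap. Both were singled out after their values were seen. The Map9 intron peak stood at 25.2% of WT in KO naive cells, where its mean was 0.334 ± 0.260 CPM (SD, n = 3) against 1.33 ± 0.463 CPM in WT (SD, n = 3), and did not overlap. In Tconv it had 1.31 ± 0.421 CPM in KO and 1.39 ± 0.709 CPM in WT (SD, n = 3 each). The 62 kb peak and the Map9 intron peak shared a stretch of 17 bases, in capitals below, with 30 bases on either side.

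62 kb peak (chr3:82114832-82114908): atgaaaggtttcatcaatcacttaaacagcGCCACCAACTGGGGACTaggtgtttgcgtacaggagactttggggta
Map9 intron peak (chr3:82269933-82270009): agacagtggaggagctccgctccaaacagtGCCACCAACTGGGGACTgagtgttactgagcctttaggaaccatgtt

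The stretch was found after the values of both peaks were seen. It occurred in 4 peaks of the table, and the other 2 were higher in HP1γ KO naive cells, by 1.60 and 1.69 on the log2 scale, in a contrast where 8.71% of all peaks were higher by more than 1. All 17 windows of 100 bases from the Map9 intron peak mapped back to their own place with a quality of at least 30.

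**Figure D2:**
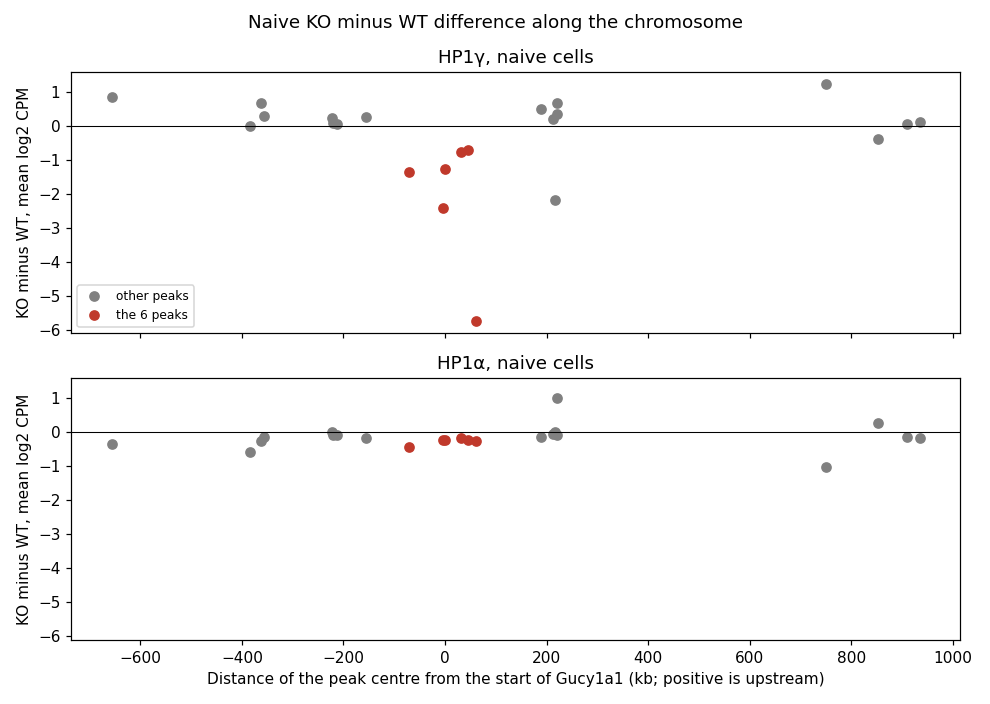
Difference of mean log2 CPM, KO minus WT, in naive cells (vertical axis) against the distance of each peak's centre from the start of Gucy1a1 in kb (horizontal axis, positive upstream), for HP1γ above and HP1α below; red points are the 6 peaks and grey points the 17 flanking peaks. In HP1γ the 6 peaks lie between -0.72 and -5.75, the latter set by the prior count of 2 since that peak had no reads, and in HP1α between -0.43 and -0.16.

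In HP1α KO naive cells the same peaks stood at 73.9% to 88.7% of WT and none was called. At the 62 kb peak the values were 2.94, 4.06 and 3.80 CPM in HP1α WT and 2.37, 3.08 and 3.69 CPM in HP1α KO, and these groups overlapped. Gucy1b1 start (73.9% of WT) and Gucy1a1 start (84.1%) were lower in every KO library than in every WT library, where 3.63% of all peaks were. In each of the 3 pairs of same-numbered libraries the KO value lay below the WT value at all 6 peaks. These peaks are neighbours read in the same libraries, and how many of all peaks did so was not counted. Log2 fold changes of the 6 peaks ranged from -0.42 to -0.20 and 0 of 6 were called (adjusted p under 0.05 with a log2 fold change beyond 1 in size), with 0 of 6 at an unadjusted p under 0.05 in edgeR and 0 called with DESeq2; 0.00559% of all peaks were called. For Gucy1b1 start the change was -0.42 ± 0.22 (SE). With the replicate number as a block, 0 of 6 were called and 0 of 6 had an unadjusted p under 0.05 in edgeR.

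Marker genes of other cell states and types were read in the naive libraries. Summed over the peaks at the starts of Ifng, Tbx21, Pdcd1, Havcr2, Gzmb and Cxcr6, genes of effector cells, accessibility was 75.8 to 81.7 CPM in KO naive, 76.0 to 79.7 CPM in WT naive and 294 to 368 CPM in KO Tconv. The start peaks of Treg markers (Foxp3, Ikzf2) summed to 197 to 221 CPM in KO and 182 to 194 CPM in WT naive cells. Of platelet and vascular markers, for which this enzyme is best known, 3 of 6 genes had a start peak, with 186 to 204 CPM in KO and 189 to 204 CPM in WT; Pf4, Gp9 and Myh11 had none. Of the 4 B cell and 4 myeloid markers 1 gene each had a start peak, at 1.9 to 2.0 and 4.0 to 4.3 CPM in KO against 1.4 to 2.2 and 4.8 to 5.1 CPM in WT; of the 3 NK markers none had one. The Cd8b1 start peak stood at 29.5 to 35.9 CPM in KO and 31.7 to 35.5 CPM in WT. The part of the Treg and myeloid lists, whose ranges did not overlap, in the loss at Gucy1a1 was not tested.

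The genotype labels were read from the peak that covers Cd4 (chr6:124856622-124866115), since the Cre transgene carries regulatory DNA of Cd4. It was 6.68 times as high in HP1γ KO as in WT naive cells, 5.84 times in Tconv and 6.08 times with Treg, and 0.994 times as high in HP1α KO as in WT naive cells. With this peak in it, the sum over the start peaks of 8 CD4 T cell markers was 1629 to 1767 CPM in HP1γ KO and 1014 to 1069 CPM in HP1γ WT naive cells. The peaks at the starts of Cbx3 and Cbx5, which no source places in the deleted part, were at 0.992 and 1.06 times WT in HP1γ KO naive cells and do not check the deletion.

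The whole stretch was less accessible in Tconv from the transplanted host than in naive cells. In the HP1α line, whose libraries played no part in the choice of the peaks, all 6 peaks fell from naive cells to Tconv in WT cells and all 6 in KO cells, where 17.5% and 19% of all peaks were called lower. The distal peaks fell the most. At the 62 kb peak accessibility went from 2.94, 4.06 and 3.80 CPM in WT naive cells to 0.135, 0.738 and 0.711 CPM in WT Tconv, without overlap. Its log2 fold change was -3.51 ± 0.41 (SE, adjusted p = 3.23e-07, edgeR quasi-likelihood test). In KO cells it went from 2.37, 3.08 and 3.69 CPM to 0.0912, 0.166 and 0.330 CPM, a change of -4.22 ± 0.41 (SE, adjusted p = 1.53e-08).

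For the 46 kb peak the log2 fold change was -4.35 ± 0.45 in WT (SE, adjusted p = 9.51e-08) and -3.96 ± 0.38 in KO. For the 31 kb peak it was -3.19 ± 0.47 in WT and -4.27 ± 0.49 in KO (SE). The changes at the genes were smaller. Gucy1b1 start changed by -2.23 ± 0.34 in WT and -1.86 ± 0.29 in KO, and the Gucy1a1 intron peak by -1.96 ± 0.31 and -1.75 ± 0.27. Gucy1a1 start changed by -1.61 ± 0.34 in WT (adjusted p = 0.000653) and -1.64 ± 0.30 in KO (adjusted p = 0.000143). The WT groups of Gucy1a1 start overlapped, and it was not called with DESeq2 (-0.92, adjusted p = 0.0600) or without WT Tconv replicate 1 (-0.56, adjusted p = 0.153). Without that library the WT changes of Gucy1b1 start, the 31 kb peak and the 62 kb peak were also smaller, at -1.25, -1.97 and -2.21, and all 3 were still called. The median over the 6 peaks was -2.71 in WT and -2.91 in KO, beside -0.03 and -0.05 over all peaks.

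In the HP1γ line the same fall was seen in WT, and KO cells started from a lower level. From WT naive cells to WT Tconv all 6 peaks dropped without overlap, to between 4.65% and 36.8% of naive, where 38.4% of all peaks dropped in that way. The KO Tconv means lay at 108% to 325% of the WT Tconv means. The Gucy1a1 intron peak had 1.38, 1.42 and 0.761 CPM in WT Tconv and 0.919, 1.71 and 1.22 CPM in KO Tconv, beside 0.545 to 1.14 CPM in KO naive cells. In KO cells the Gucy1b1 start, Gucy1a1 intron and Gucy1a1 start peaks stood at 125%, 155% and 98.3% of naive in Tconv, with overlap, while the 31 kb and 46 kb peaks dropped to 24.9% and 12.3% of naive without overlap, where 33.9% of all peaks did so. At the 62 kb peak the count went from 0 reads to 5, 8 and 11 reads. These contrasts use the naive libraries that picked the stretch and are a description.

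The peaks that closed on activation were also read in the contrast of HP1γ KO and WT naive cells. That contrast picked the stretch, so the place of the 6 peaks in it follows from the choice and is a description. Of the 12548 peaks called lower in HP1α WT Tconv than in naive cells, 17 had a log2 fold change below -1 in that naive contrast, or 0.135%, and 4 of these 17 were among the 6 peaks. Their median was -0.06, with 61.0% of them below 0. Over all 71508 peaks tested, 79 were below -1, or 0.110%, and 45.2% were below 0. On the other side 6231 of all peaks, or 8.71%, were above 1, and 27 of the 12548, or 0.215%.

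**Figure D3:**
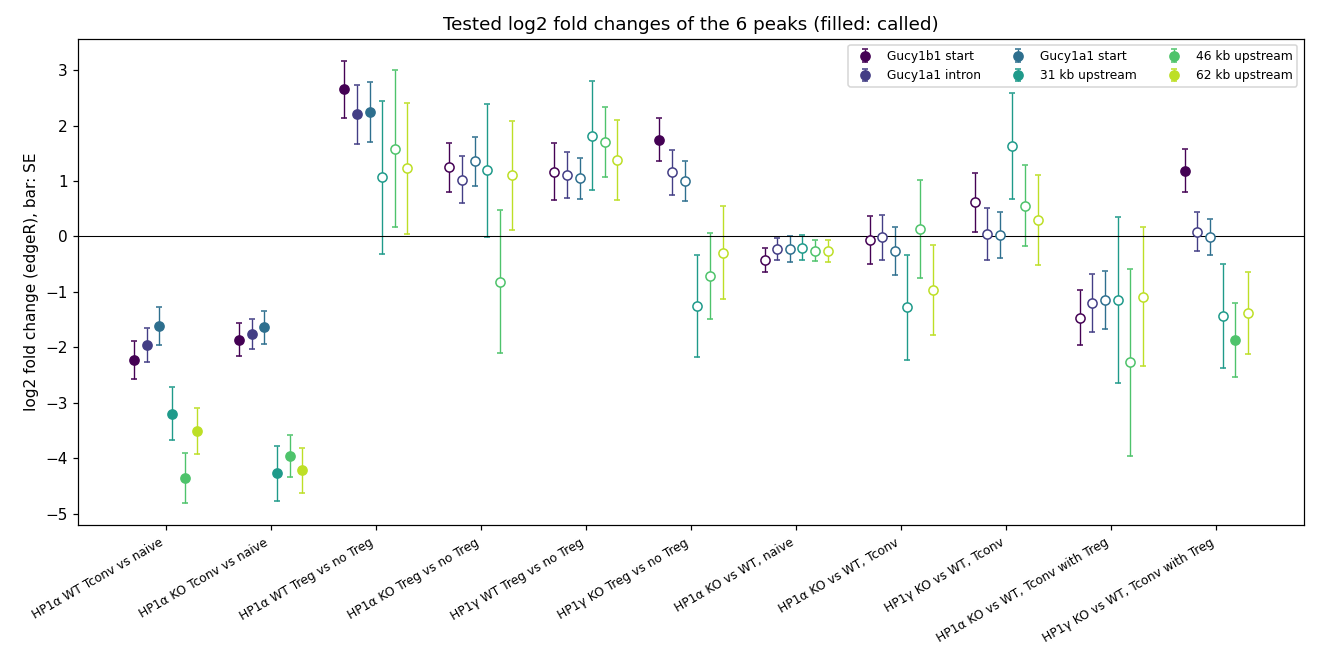
Log2 fold changes of the 6 peaks from edgeR (vertical axis, bars are SEs) in 11 tested comparisons, colours standing for the peaks and filled points for calls. Both activation contrasts of the HP1α line show 6 filled points between -4.35 and -1.61, and the 3 distal peaks lie below the 3 peaks at the genes.

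Once the cells were activated, no peak of the stretch was called between HP1γ KO and WT Tconv. Of the 6 peaks 0 were called in edgeR, 0 passed an unadjusted p of 0.05 and DESeq2 called 0, where 3.35% of all peaks were called. The Gucy1a1 intron and Gucy1a1 start peaks changed by 0.04 ± 0.47 and 0.04 ± 0.41 (SE, log2). All 6 log2 fold changes were above 0, where 37924 of 71508 peaks were. The 31 kb peak had 0.209, 0.275 and 0.127 CPM in KO and 0.0314, 0.0365 and 0.120 CPM in WT, so that every KO library lay above every WT library, where 10.4% of all peaks did so. Its change of 1.64 ± 0.96 (SE, adjusted p = 0.359) was not called, and the distal peaks held between 2 and 11 reads a library in these Tconv. HP1α KO and WT Tconv gave 0 calls as well in edgeR, with 0 at an unadjusted p under 0.05 and 0 in DESeq2, where 0.021% of all peaks were called.

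With Treg, 2 of 6 peaks were called between HP1γ KO and WT, 1 in each direction, where 6.48% of all peaks were called higher and 5.38% lower. Gucy1b1 start had 21.6, 7.04 and 7.96 CPM in KO and 6.11, 3.68 and 7.81 CPM in WT. The groups overlapped, and 1 KO library stood far above the other two. Its log2 fold change was 1.19 ± 0.38 (SE, adjusted p = 0.0343), and 0.44 (adjusted p = 0.343) without that library, KO replicate 1. The call was also lost without WT replicate 1, at 1.31 (adjusted p = 0.0644), and without WT replicate 2, at 0.92 (adjusted p = 0.190). The 46 kb peak had 6, 4 and 3 reads in KO and 9, 16 and 10 reads in WT, a change of -1.86 ± 0.67 (SE, adjusted p = 0.0478), without overlap in CPM. Leaving out any 1 of 5 of the 6 libraries ended this call, with adjusted p from 0.0919 to 0.195, while the log2 fold change stayed between -2.27 and -1.65 with any library left out. The Gucy1a1 start and intron peaks changed by -0.01 ± 0.33 and 0.09 ± 0.36. In the HP1α line 0 of 6 were called in edgeR and 0 in DESeq2, where 1.63% of all peaks were called. Log2 fold changes of the 6 peaks, KO against WT, ranged from -2.27 to -1.09. That comparison had 1 KO and 2 WT libraries, and the lone KO library was assumed to vary like the other groups.

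The 3 peaks at the genes were called higher with Treg than without in HP1α WT cells. There 3 of 6 peaks passed, where 4.92% of all peaks were called higher. Gucy1b1 start went from 1.39, 4.17 and 5.69 CPM to 16.4 and 8.55 CPM, without overlap, a log2 fold change of 2.65 ± 0.51 (SE, adjusted p = 0.00426). The Gucy1a1 intron peak changed by 2.21 ± 0.53 (SE, adjusted p = 0.0172) and Gucy1a1 start by 2.24 ± 0.54 (SE, adjusted p = 0.0173). These calls rest on 2 libraries with Treg of 12.7 and 1.49 M reads in peaks. Without replicate 1 with Treg 0 of 6 were called, and without replicate 2 with Treg, or without WT Tconv replicate 1, or with log2 depth as a covariate, 1 of 6 was. Without WT Tconv replicate 1 the change of Gucy1a1 start was 1.22 and that of Gucy1b1 start 1.70, the latter still called.

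In HP1γ KO cells Gucy1b1 start was called higher with Treg, by 1.74 ± 0.39 (SE, adjusted p = 0.00598), and it was the only call of 6, where 6.1% of all peaks were called higher. It was 0.99 (adjusted p = 0.0566) without KO replicate 1 with Treg. In HP1γ WT cells all 6 peaks had positive log2 fold changes, from 1.05 to 1.82, where 37945 of 71508 peaks had one. In edgeR 0 of the 6 were called, where 0.137% of all peaks were, and DESeq2 called 1. An unadjusted p under 0.05 in edgeR was reached by 4 of 6, where 14522 of 71508 peaks reached it. The HP1α KO arm that had received Treg was a single library, its spread borrowed from the other groups. Here 0 of 6 were called in edgeR and 0 in DESeq2, where 0.55% of all peaks were called. Log2 fold changes of the 6 peaks ranged from -0.82 to 1.35, with 5 above 0. The effect of Treg was also compared between genotypes. The interaction was called at 0 of 6 peaks in either line, where 0.0014% (HP1γ) and 0.0461% (HP1α) of all peaks were called. DESeq2 called 0 as well. In HP1γ 2 of 6 had an unadjusted p under 0.05 in edgeR, where 9150 of 71508 peaks had one. In HP1α, with its single KO library with Treg, the interaction terms of the 6 peaks ranged from -2.40 to 0.13.

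In all, 29 genes of nitric oxide and cyclic GMP signalling were followed, Gucy1a1 and Gucy1b1 among them, of which 25 had at least 1 peak and which together held 104 peaks, the 3 at the subunit genes included. On activation 10 of the 104 peaks rose and 24 fell in HP1α WT cells, where 24.9% of all peaks rose and 17.5% fell. In HP1α KO cells 10 rose and 28 fell, where 23.5% of all peaks rose and 19% fell. Between HP1γ KO and WT Tconv 1 of the 104 peaks was called, higher in KO, where 3.35% of all peaks were called in either direction. It was the only peak of Cnga2, a cyclic nucleotide-gated channel subunit, with a log2 fold change of 3.77 ± 0.45 (SE, adjusted p = 2.17e-05).

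With Treg, 5 of the 104 peaks were higher and 12 lower in HP1γ KO than in WT, where 6.48% of all peaks were higher and 5.38% lower, with a median of -0.30 over the list and -0.02 over all peaks. The higher ones were Gucy1b1 start, Cnga2 at 2.82 ± 0.45 (SE, adjusted p = 0.000209), Nos1, a neuronal nitric oxide synthase, at 2.21 ± 0.38 (SE, adjusted p = 0.000552), and 1 peak each of the phosphodiesterase genes Pde1b at 1.22 ± 0.28 and Pde10a at 1.60 ± 0.57 (SE). Of the 5 peaks of Pde1b another 1 was called lower. The lower ones included peaks of the phosphodiesterase genes Pde3b at -1.19 ± 0.30 and Pde11a at -1.36 ± 0.28 and of the channel gene Cngb1 at -1.15 ± 0.30 (SE). The HP1α line with Treg again had a single KO library, whose own spread was not known. There the median log2 fold change, KO against WT, was -0.12 over the list and -0.11 over all peaks.

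The peaks most like the 62 kb peak in log2 CPM were sought over all others. Over 33 libraries the highest Pearson r was 0.80 for peaks near Bahd1 and Rpp25l, followed by 0.79 near Syt3, 0.78 near Mir3473f and 0.76 near Gm75010, and the members ranged from 0.52 to 0.70. Over the 18 HP1γ libraries, the naive ones that picked the stretch included, the Gucy1a1 intron peak was first with 0.83 and the other members ranged from 0.29 to 0.68. It was followed by peaks near Gm43631 (0.81), Rprd2 and Zfp937 (both 0.80) and Bahd1 (0.79). The libraries share conditions and depth, so these values describe the pattern only.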

How the data were processed

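The ATAC-seq data of spleen CD4 T cells were taken as unnormalized counts over consensus peaks deposited by the authors. Upstream, the authors trimmed the reads (Trim Galore 0.6.7), aligned them to GRCm39, filtered them by mapping quality, removed duplicates and counted them in merged HMMRATAC peaks with featureCounts 2.0.3. Depth was 1.49 to 96.8 M reads in peaks per library, and low counts at the distal peaks limit precision. The labels name replicates without saying whether they are separate animals, so p-values measure the spread between these libraries.

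Of 71512 intervals, 3 without width were left out. Peaks were annotated with GENCODE vM39. HP1γ (18 libraries) and HP1α (15 kept) were fitted apart with edgeR 4.0.16 (filterByExpr, TMM, quasi-likelihood F test, two-sided, Benjamini-Hochberg over all peaks) in R 4.3.3, in 13 tested comparisons. Calls had an adjusted p under 0.05 with a log2 fold change beyond 1 in size. CPM used TMM over all 36 libraries, and log2 CPM a prior count of 2. Overlap of groups was judged on CPM. The fit was tested on simulated data. The summed level of the naive marker list is not reported here. Windows were mapped with minimap2. Named genes were all members, the peak of smallest p of each cyclic GMP gene with a called peak, the largest Cd4 peak, the Cbx3 and Cbx5 start peaks, peaks without reads and the 5 peaks most like the 62 kb peak; of the cyclic GMP genes with Treg only those whose peak was itself called were named.

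The members, lists and tests were chosen with earlier results of these data known. Same-numbered libraries deviated together, with every correlation across peaks over 0.1, for HP1α KO and WT naive cells (0.25 to 0.50), HP1γ WT with and without Treg (0.20 to 0.29) and, with Treg, HP1γ KO and WT (0.15 to 0.32). Alternatives were other scalings, no filter, DESeq2 1.42.0, the replicate block, all HP1α libraries, log2 depth, the legacy fit and leaving out each library.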

Additional observations from a re-analysis of the deposited data

Results flagged for a closer look

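The 62 kb peak moved in opposite directions on activation in the 2 genotypes of the HP1γ line: every WT Tconv library lay below every WT naive library, a difference of -3.68 in mean log2 CPM, and every KO Tconv library lay above every KO naive library, a difference of 2.32. The second value depends on the prior count, since KO naive cells had 0 reads there, and it rests on 5, 8 and 11 reads. The difference between the genotypes was not tested, because the naive libraries picked the stretch.

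The 46 kb peak moved in opposite directions with Treg in the 2 genotypes of the HP1α line, by 1.67 in WT and by -0.78 in KO in mean log2 CPM. The WT libraries with Treg held 5 and 2 reads and the single KO library with Treg 5 reads. The opposite direction was not kept once the libraries left out by the study were included: mean log2 CPM in KO cells was then -0.55 with Treg (n = 3) and -2.10 without (n = 3). The edgeR interaction term for this peak was -2.40 ± 1.89 (SE, adjusted p = 0.694) and was not called. Groups of 3 libraries were too small for a check of single outlying libraries.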

How the results depend on the processing

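No call reversed its direction. Between HP1γ KO and WT with Treg the 2 called peaks became 1 with DESeq2 size factors in edgeR (Gucy1b1 start), 1 with library size alone, 1 with log2 depth as a covariate and 1 with the legacy fit (the 46 kb peak in these 3), and 0 to 1 when 1 library was left out. For HP1γ KO with against without Treg, 1 call became 2 with DESeq2 and 0 to 3 with 1 library left out (0 without KO replicate 1 with Treg, 3 without KO replicate 2 with Treg and 2 without KO Tconv replicate 2). For HP1γ WT 0 became 1 with DESeq2. For HP1α WT with against without Treg, 3 became 1 with log2 depth and 0 to 3 with 1 library left out, and for HP1α KO 0 became 2 with all 18 HP1α libraries. The HP1α activation counts stayed at 5 to 6 in WT and at 6 in KO with 1 library left out, and the WT count was 5 with DESeq2 and 5 with the legacy fit (Gucy1a1 start lost). The causes were not tested.

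The replicate block changed no count of called members: 2 of 6 between HP1γ KO and WT with Treg, 1 in HP1γ KO and 3 in HP1α WT with against without Treg, 6 and 6 on activation in the HP1α line, and 0 elsewhere.

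The HP1γ naive difference, as the median over the 6 peaks in each library, was -1.54 in mean log2 CPM, -1.54 with library size alone and -1.57 with a prior count of 0.5, and -1.70 to -1.27 with 1 library left out. The matching Tconv against naive difference was -2.68 in WT (-2.84 to -2.41) and -0.92 in KO (-1.11 to -0.81). In KO the median of the 6 single-peak differences was 0.08, from -2.70 to 2.32, so the sign depends on how the peaks are summarised.

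Assigned by the nearest protein-coding start, the cyclic GMP list had 2 called peaks in place of 1 between HP1γ KO and WT Tconv, 28 in place of 17 with Treg, 2 in place of 0 in HP1α with Treg, 56 in place of 34 on activation in HP1α WT and 12 in place of 5 with Treg in HP1α WT. With 1 library left out, chosen after seeing the data as were log2 depth and the legacy fit, these counts ranged over 1 to 7, 9 to 22, 0 to 0, 23 to 35 and 0 to 6. Of these, 7 came without WT Tconv replicate 3, 5 without KO Tconv replicate 1, 9 without KO replicate 1 with Treg and 11 without WT replicate 2 with Treg. No fit was made without the only kept HP1α KO library with Treg.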

Other observations

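The 3 HP1α libraries that the study left out were read at the same peaks. Gucy1a1 start stood at 8.32 and 6.75 CPM in the 2 KO libraries with Treg and at 11.7 CPM in the WT one, beside 4.72 CPM in the kept KO library and 10.2 and 11.8 CPM in the kept WT libraries. The 46 kb peak stood at 0.968 and 2.291 CPM (10 and 19 reads) in these KO libraries and at 2.80 CPM in the WT one, beside 0.0940 CPM in the kept KO library and 0.376 and 1.07 CPM in the kept WT libraries. The 62 kb peak held 6 and 1 reads in these KO libraries and 4 in the WT one, out of 7.12, 5.73 and 3.20 M reads in peaks.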
